A study of Homo sapiens with 6 samples.

Results

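The nuclear genes of the respiratory chain and ATP synthase were examined in SH-SY5Y cells, a human neuroblastoma line, on 6 Affymetrix GeneChip expression arrays. Members were found by symbol, with NDUF genes of the A, B, C, S and V series for complex I, SDH and UQCR genes for complexes II and III, and COX and ATP5 genes for complexes IV and V. CYC1 and CYCS, the cytochromes c1 and c, were added by name. A gene was taken where a probe set carried its symbol alone, and the probe set with the highest mean stood for it. This gave 68 of the 11963 genes that the arrays name. They are 27 genes of complex I, 3 of complex II, 7 of complex III, cytochrome c, 13 of complex IV and 17 of complex V, 1 of which is the pseudogene ATP5MC2P1. A further 7 probe sets carried such a symbol together with another one and were left out, among them those of NDUFS5, NDUFS8, NDUFC2, UQCRH and ATP5MF.

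Bf 140 nM stands for medium with 140 nM free bilirubin, the unconjugated form of the pigment, and was given for 1 h to 3 flasks of cells. DMSO 0.6%, medium with the solvent of bilirubin alone, was given for 1 h to the other 3. Both groups were the same cell line, and the replicates are described as biological, but the sources used here do not say what else the arrays of one replicate number shared. The question was whether the messages of the respiratory complexes differed after 1 h of bilirubin. Values are the deposited levels on a log scale, read as log2, so a difference of 1 is taken as a doubling in brightness. Whether that reading, and any fold bound based on it, holds for dim genes was not checked. An error after ± is an SD over 3 arrays.

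Complexes I to IV pass electrons from NADH and succinate to oxygen through ubiquinone and cytochrome c, and complexes I, III and IV pump protons across the inner mitochondrial membrane as they do so. Complex V lets the protons return and makes ATP. Most subunits are encoded in the nucleus and imported, while a small set of core subunits is made from mitochondrial DNA inside the organelle. Many of the nuclear genes are known to be driven by nuclear respiratory factor 1 (NRF1) and by GABP, a factor of the ETS family. Neurons depend on this pathway for most of their ATP.

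The promoters of the set are shown first, because genes of this pathway are known for shared control elements. No expression value was tested against them. RefSeq promoters on GRCh38.p14, the 250 bases before the start of each gene, were matched for 58 members. The core of the NRF1 element was searched as GCATGCGC on both strands. Its palindrome was taken where the core on one strand overlaps the core on the other in a run of the same letters on both, so each copy also holds the core. The core was found in 12 member promoters (20.7%), against 3.86% of the 9563 promoters of genes named on the arrays and 2.81% of all 27305 promoters. The palindrome was found in 3 members, 5.17%, against 1.65% of the genes on the arrays and 1.13% of all promoters. The ETS element, searched as CCGGAAG on both strands, was found in 14 members (24.1%). The share was 12.8% of the genes on the arrays and 8.82% of all promoters. The TATA box, searched as TATAAA on both strands, was found in 7 members (12.1%). The share was 7.93% of the genes on the arrays but 11.1% of all promoters, close to that of the members. These are matches of letters and no measure of binding. Below, 70 bases around the core are given for the 3 genes with the palindrome and for 2 of the genes with the core alone, with the NRF1 letters in capitals and, in SDHD, an ETS element read on the other strand in capitals at the end.
SDHD (complex II, chr11:112086733-112086802, plus strand): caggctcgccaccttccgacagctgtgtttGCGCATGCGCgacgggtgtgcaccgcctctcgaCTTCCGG
NDUFB4 (complex I, chr3:120596147-120596216, plus strand): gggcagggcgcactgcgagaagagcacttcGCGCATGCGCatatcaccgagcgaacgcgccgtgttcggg
ATP5F1C (complex V, chr10:7788107-7788176, plus strand): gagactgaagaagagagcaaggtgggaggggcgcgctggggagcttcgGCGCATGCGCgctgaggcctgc
CYCS (cytochrome c, chr7:25125391-25125460, minus strand): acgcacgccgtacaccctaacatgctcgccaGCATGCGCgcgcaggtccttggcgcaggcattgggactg
COX5B (complex IV, chr2:97645895-97645964, plus strand): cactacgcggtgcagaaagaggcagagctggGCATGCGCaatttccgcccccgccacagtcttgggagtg
The element starts 110 bases before the gene in SDHD, 159 in NDUFB4, 22 in ATP5F1C, 169 in CYCS and 136 in COX5B, so its place in the promoter differs among them.

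The arrays had medians between 7.73 and 7.97. Markers of noradrenergic neuroblastoma were high where detected, with 11 of 12 on the arrays and a median level of 12.15, but TH stood at 6.49, MYCN at 7.62 and HAND2 at 7.87. Leukocyte (3 of 4) and epithelial (3 of 3) markers lay between 5.95 and 7.36, and the 5 fibroblast markers between 7.55 and 10.54. Both arrays of replicate 3 stood apart. The 3′ minus 5′ signal of the actin control was 0.12, 0.50 and 1.49 for replicates 1, 2 and 3 of Bf 140 nM and 0.10, 0.37 and 1.90 for those of DMSO 0.6%, and that of GAPDH was 0.21, 0.25 and 1.03 for Bf 140 nM and 0.20, 0.21 and 1.15 for DMSO 0.6%.

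The genes were among the brightest on the arrays. Their median level was 12.13, at the 96.3rd percentile, against 8.35 over all genes. The median was 11.70 for complex I, 10.67 for complex II, 12.18 for complex III, 12.91 for CYCS, 12.63 for complex IV and 12.64 for complex V. Brightness depends on the probes as well as on the transcript, so these medians do not rank the complexes by amount of RNA. At the top stood COX7C at 13.47, a small subunit of cytochrome c oxidase, and ATP5F1A at 13.42, the alpha subunit of the catalytic head of ATP synthase. NDUFS7 at 9.67 was the lowest member of complex I. Genes given outside the naming rule, such as COX7C and NDUFS7, were chosen after their values were seen.

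**Figure D1:**
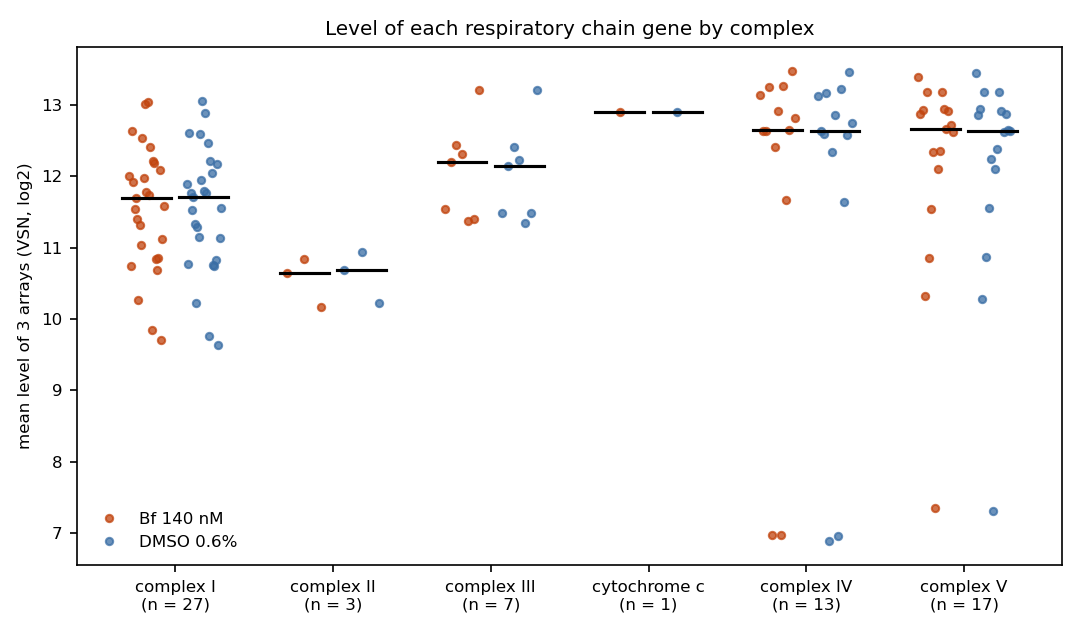
Mean log2 level over the 3 arrays of Bf 140 nM (left) and of DMSO 0.6% (right) for each of the 68 genes, by complex, with the median of each complex as a bar. Most lie above 9.5, and COX6A2, COX7A1 and the pseudogene ATP5MC2P1 lie near 7.

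The levels of 3 members were near 7, and 2 of these are muscle isoforms of complex IV. COX6A2, the heart and muscle form of subunit 6A, measured 6.82, 7.18 and 6.93 in Bf 140 nM and 7.00, 7.01 and 6.64 in DMSO 0.6%. COX6A1, the form of most other tissues, measured 13.23, 13.15 and 13.36 in Bf 140 nM and 13.20, 13.00 and 13.31 in DMSO 0.6%. The groups overlapped for both. COX7A1, the muscle form of subunit 7A, measured 6.97, 6.96 and 6.99 in Bf 140 nM and 6.92, 7.04 and 6.92 in DMSO 0.6%, the narrowest range of any member at 0.12. Its counterpart COX7A2 measured 13.16, 13.12 and 13.52 in Bf 140 nM and 12.95, 12.97 and 13.75 in DMSO 0.6%. The muscle markers MYH7, CKM, MB and ACTC1 lay between 6.40 and 7.34 as well. The pseudogene ATP5MC2P1 averaged 7.35 ± 0.15 in Bf 140 nM and 7.31 ± 0.18 in DMSO 0.6%. COX4I2, COX6B2 and COX8C, further isoforms of complex IV, were not analysed here, nor were SDHB and UQCRFS1.

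None of the 68 genes passed in the comparison of Bf 140 nM with DMSO 0.6%. In limma with Benjamini-Hochberg adjustment over all probe sets, the count at an adjusted p under 0.10 was 0 in each direction, as was the share of all 11963 genes (0% higher, 0% lower). At an unadjusted p under 0.05 there were also 0 members, against 7 of all genes (0.0585%). With the replicate number as a block, limma again called 0 members, and 0 had an unadjusted p under 0.05, against 0.828% of all genes. Without the block, the spread between replicate numbers stays in the error. The few small p-values of that fit are thus weak evidence of no change. The median difference of the members was 0.02, from -0.11 for NDUFA9 to 0.16 for NDUFA2, and that of all genes was 0.01. The median size of the difference, without sign, was 0.04 for the members and 0.05 for all genes. By complex the median difference was 0.02 for complex I, -0.05 for complex II, 0.03 for complex III, 0.00 for CYCS, 0.04 for complex IV and -0.00 for complex V. The members' median rested on single arrays, since it was 0.18 without replicate 3 of DMSO 0.6% and -0.071 without replicate 3 of Bf 140 nM. Without both replicate 3 arrays it was 0.07.

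Without a block, how large a change the data leave room for differed among the complexes. The 95% confidence interval of the difference lay within 1.5-fold in both directions (0.58 on the log2 scale) for 45 of the 68 genes, while 81.7% of all genes met this. At a level of 11 or above, 33 of 53 members and 857 of all 1318 genes met it. The count over the 68 genes was 28 to 31 when any 1 array other than replicate 3 of DMSO 0.6% was left out. It was 40 without that array, and 22 if the scale was one of natural logs. The counts by complex were not repeated under these settings. The count was 14 of 27 in complex I, 3 of 3 in complex II, 5 of 7 in complex III, 9 of 13 in complex IV and 13 of 17 in complex V, and CYCS met it. The outermost bounds were -0.86 for NDUFA9 and 1.03 for NDUFC1. With the replicate number as a block, all 68 intervals lay within 1.5-fold (99.9% of all genes), and the outermost bounds were -0.38 for UQCRC2 and 0.34 for NDUFA2. The median half-width was then much alike among the complexes, from 0.18 for CYCS to 0.20 for complex II. The spread behind the unblocked intervals was wider than for most genes. The median SD within groups was 0.28 for the members and 0.16 for all genes, and 0.25 for the 1318 genes at a level of 11 or above, a bright set chosen after seeing the data. It was 0.32 in complex I, 0.15 in complex II, 0.31 in complex III, 0.28 in complex IV and 0.22 in complex V.

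**Figure D2:**
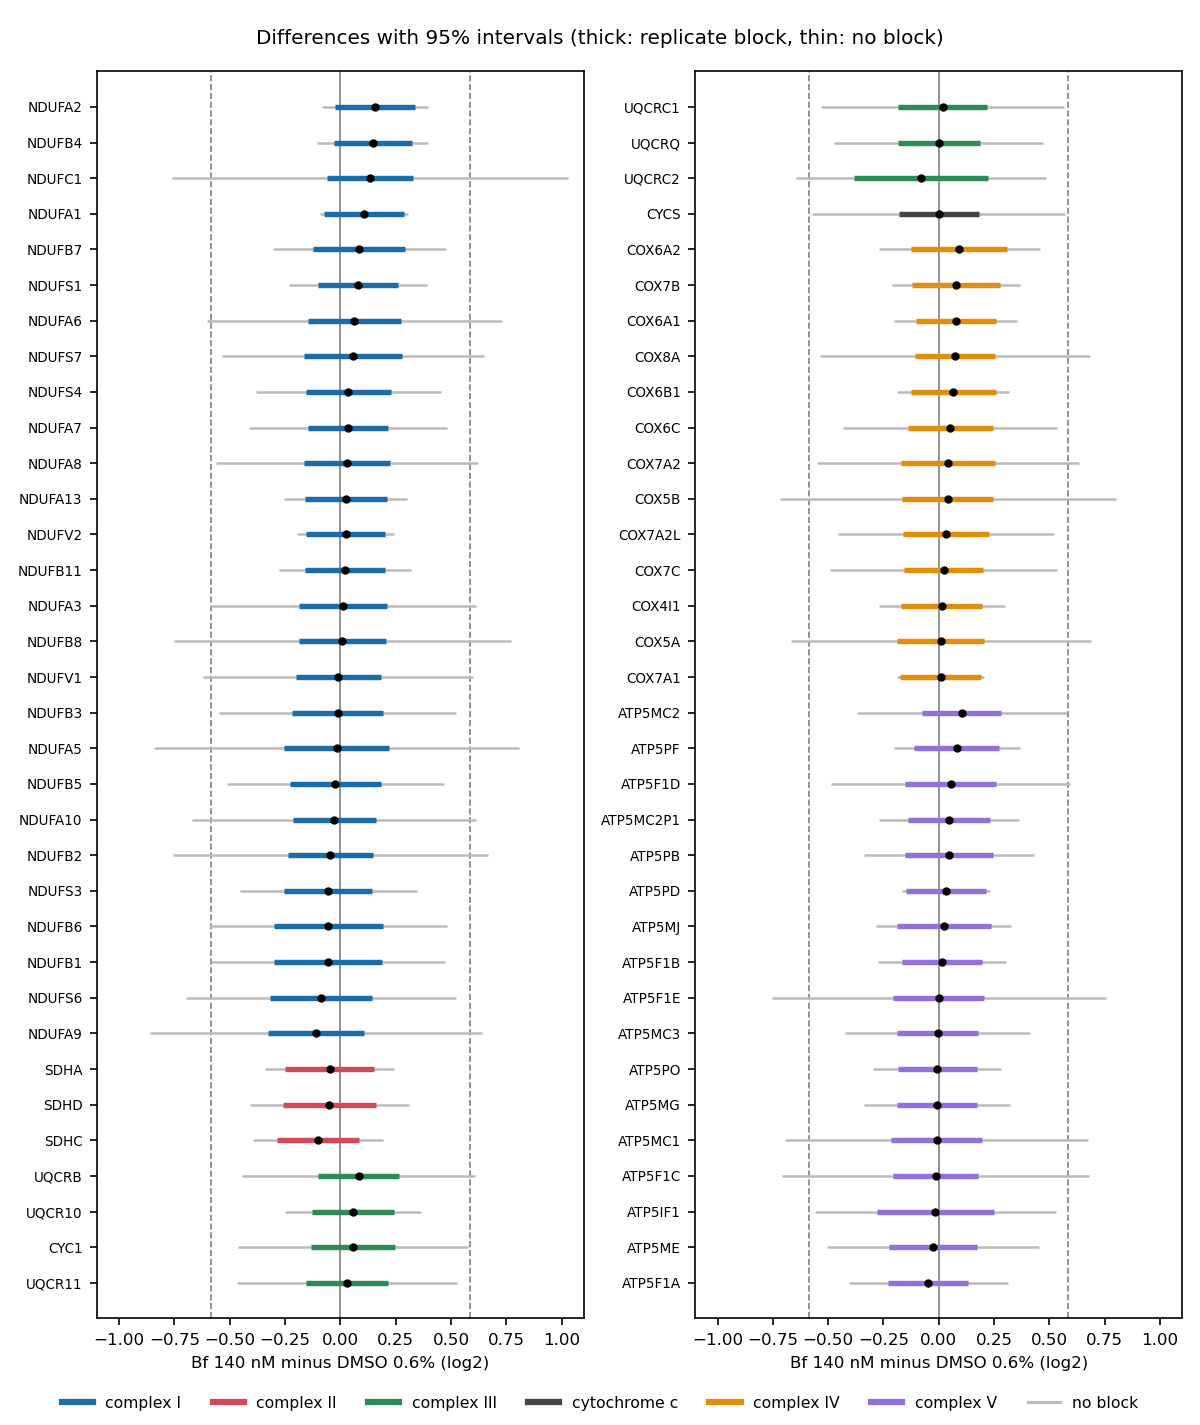
Bf 140 nM minus DMSO 0.6% (log2) of each gene with its 95% confidence interval from limma, by complex, as a thin line without a block and a thick line with the replicate number as a block; dots are the differences and dashed lines mark 1.5-fold. Every interval crosses 0, and the thin lines of complex I include the widest, that of NDUFC1 reaching 1.03.

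In complex I, the entry point for electrons from NADH, NDUFA2 had the smallest unadjusted p of all members, 0.166 in limma. With the replicate number as a block its unadjusted limma p was 0.084 and its interval -0.02 to 0.34. NDUFA2, an accessory subunit of the NADH-oxidizing arm, measured 12.02, 11.80 and 11.93 in Bf 140 nM and 11.87, 11.71 and 11.71 in DMSO 0.6%. Its groups overlapped, and its difference was 0.16 (95% CI -0.08 to 0.40, limma adjusted p = 1.00). NDUFB4, an accessory subunit of the membrane arm, measured 13.00, 12.95 and 13.16 in Bf 140 nM and 12.82, 12.83 and 13.02 in DMSO 0.6%. Its difference was 0.15 (-0.10 to 0.40), again with overlapping groups. NDUFA1, a small membrane subunit encoded on the X chromosome, was the 1 member whose groups did not overlap, which 2.38% of all genes showed. It measured 12.05, 11.99 and 11.97 in Bf 140 nM and 11.94, 11.82 and 11.93 in DMSO 0.6%, a difference of 0.11 (-0.09 to 0.31).

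Of the core subunits, NDUFV1, which holds the flavin that takes electrons from NADH, averaged 11.12 ± 0.40 in Bf 140 nM and 11.13 ± 0.34 in DMSO 0.6%. NDUFS1, the largest iron-sulfur subunit, averaged 10.84 ± 0.12 in Bf 140 nM and 10.76 ± 0.19 in DMSO 0.6%. NDUFA9, an accessory subunit near the ubiquinone site, had the lowest difference of all members at -0.11 (-0.86 to 0.64). It measured 11.04, 10.69 and 11.38 in Bf 140 nM and 10.95, 10.71 and 11.77 in DMSO 0.6%, so that both replicate 3 arrays were the highest of their group. NDUFA5, an accessory subunit of the same arm, had the widest range of any member at 1.22. It measured 11.50, 11.51 and 12.08 in Bf 140 nM against 11.22, 11.49 and 12.43 in DMSO 0.6%, a difference of -0.02 (-0.84 to 0.81).

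Complex II, succinate dehydrogenase, belongs to both the citric acid cycle and the respiratory chain, and its 3 measured genes all had negative differences. SDHA, the flavoprotein that oxidizes succinate, measured 10.85, 10.65 and 10.44 in Bf 140 nM and 10.70, 10.70 and 10.67 in DMSO 0.6%, a difference of -0.05 (-0.34 to 0.24). SDHC and SDHD anchor the enzyme in the membrane. SDHC measured 10.89, 10.88 and 10.74 in Bf 140 nM and 11.06, 11.03 and 10.72 in DMSO 0.6%, a difference of -0.10 (-0.39 to 0.19). SDHD measured 10.19, 10.07 and 10.26 in Bf 140 nM and 9.99, 10.17 and 10.51 in DMSO 0.6%, a difference of -0.05 (-0.41 to 0.31). The groups overlapped for all 3 genes, and the differences stayed negative under both other scalings, while without both replicate 3 arrays the median of the complex was 0.04 in place of -0.05.

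In complex III, which hands electrons from ubiquinol to cytochrome c, differences ran between -0.08 and 0.08. UQCRC2, a core subunit, was at the low end (-0.64 to 0.49) and measured 11.57, 11.22 and 11.41 in Bf 140 nM against 11.18, 11.26 and 12.00 in DMSO 0.6%. UQCRB, which takes part in ubiquinone binding, was at the high end (-0.44 to 0.61) and averaged 12.31 ± 0.27 in Bf 140 nM and 12.23 ± 0.35 in DMSO 0.6%. The small subunit UQCR10 averaged 12.21 ± 0.20 in Bf 140 nM and 12.15 ± 0.09 in DMSO 0.6%. CYC1, the heme-bearing subunit that reduces cytochrome c, measured 11.67, 11.14 and 11.82 in Bf 140 nM and 11.51, 11.23 and 11.72 in DMSO 0.6%, a difference of 0.06 (-0.46 to 0.58). CYCS, the mobile carrier that also triggers apoptosis when released from mitochondria, measured 12.68, 12.79 and 13.25 in Bf 140 nM and 12.61, 12.78 and 13.33 in DMSO 0.6%. Its group means were both 12.91, and its interval ran from -0.57 to 0.57.

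Complex IV, cytochrome c oxidase, passes electrons to oxygen. All of its 13 genes had differences above 0, from 0.01 to 0.09, but 12 after quantile normalization and 10 with equal array medians. Of all 68 members 43 were above 0, and the median of all genes was 0.01. With replicate number 3 alone, 6 of the 13 were positive. The median of the complex fell below 0 in the lowest fit with 1 array left out. COX4I1, a regulatory subunit, averaged 13.13 ± 0.17 in Bf 140 nM and 13.12 ± 0.10 in DMSO 0.6%. COX5B, which binds zinc, had the widest range in the complex, 1.04, and measured 12.63, 12.25 and 13.01 in Bf 140 nM and 12.42, 12.15 and 13.20 in DMSO 0.6%. The largest difference in the complex was that of COX6A2, at 0.09 (-0.27 to 0.46), but its level of 6.93 was in the range of the muscle markers. It was -0.18, 0.18 and 0.29 for numbers 1, 2 and 3. COX7A1, at a level of 6.96, was in that range too. COX7B averaged 12.65 ± 0.05 in Bf 140 nM and 12.57 ± 0.20 in DMSO 0.6%. COX6B1, on the outer face of the enzyme, averaged 12.41 ± 0.13 in Bf 140 nM and 12.34 ± 0.09 in DMSO 0.6%. COX7A2L, a relative of the 7A subunits that joins complex IV to complex III, averaged 11.67 ± 0.26 in Bf 140 nM and 11.64 ± 0.32 in DMSO 0.6%. COXFA4, formerly NDUFA4 and now counted with complex IV, is outside the set by its present symbol, and its difference was 0.09 (-0.14 to 0.32).

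In complex V, differences ran from -0.05 to 0.10. ATP5F1A was lowest and measured 13.49, 13.18 and 13.52 in Bf 140 nM and 13.45, 13.23 and 13.64 in DMSO 0.6%, an interval of -0.41 to 0.31. ATP5F1B, the beta subunit that carries the catalytic sites, averaged 12.87 ± 0.16 in Bf 140 nM and 12.85 ± 0.12 in DMSO 0.6%. ATP5MC1, ATP5MC2 and ATP5MC3 encode the same mature c subunit of the rotating ring with different import sequences. ATP5MC2 had the highest difference in the complex, 0.10 (-0.37 to 0.58), and measured 12.62, 12.37 and 12.03 in Bf 140 nM and 12.49, 12.26 and 11.96 in DMSO 0.6%. ATP5MC1 averaged 11.54 ± 0.38 in Bf 140 nM and 11.55 ± 0.45 in DMSO 0.6%, and ATP5MC3 averaged 12.10 ± 0.20 in Bf 140 nM and 12.10 ± 0.27 in DMSO 0.6%. ATP5IF1, the inhibitor that stops the enzyme from running backwards, measured 10.97, 10.66 and 10.92 in Bf 140 nM and 10.65, 10.60 and 11.36 in DMSO 0.6%, a difference of -0.02 (-0.56 to 0.53). ATP5PF, the coupling factor of the stalk, averaged 12.72 ± 0.06 in Bf 140 nM and 12.64 ± 0.19 in DMSO 0.6%.

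The replicate numbers gave unlike differences on the deposited scale, and the contrast between them was mostly lost when the arrays were quantile normalized. Bf 140 nM minus DMSO 0.6% had a median over the members of 0.14 for number 1, -0.00 for number 2 and -0.08 for number 3, while the medians of all genes were 0.03, -0.01 and 0.02. The difference was positive for 62 of 68 members (91.2%) with number 1, 33 (48.5%) with number 2 and 25 (36.8%) with number 3. After quantile normalization the counts were 41, 37 and 40 of 68, with medians of 0.05, 0.01 and 0.03, and with equal array medians they were 59, 36 and 17. All 27 genes of complex I were positive with number 1, 11 with number 2 and 9 with number 3, against 20, 15 and 16 after quantile normalization. In complex V the counts were 14, 9 and 5 of 17, and in complex IV 12, 9 and 6 of 13. Bright genes in general showed the same order, with medians of 0.12, -0.01 and -0.10 and positive shares of 82.2%, 44.0% and 28.2% at a level of 11 or above.

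UQCRC2 had differences of 0.39, -0.04 and -0.58 for numbers 1, 2 and 3, and ATP5IF1 had 0.33, 0.06 and -0.43. NDUFA5 had 0.28, 0.02 and -0.35. On these probe sets the sign with number 3 was opposite to that with number 1 in all 3 genes. A dimmer probe set of UQCRC2, 200883_at, had 0.27, -0.03 and 0.01, and so no opposite sign with number 3. A positive difference with every number was found for 8 members, NDUFA1, NDUFA2, NDUFB4, UQCRB, COX6A1, COX7C, COX8A and ATP5MC2, a share close to the 11.1% of all genes. All 8 were among the 53 members at a level of 11 or above, and 87 of all 1318 genes at that level were positive with every number. The members' share was higher than in that bright set, which was chosen after seeing the data. Of 57 cytosolic ribosomal protein genes, 9 were positive with every number too. The members' count was smaller with equal array medians, as given in the last section. A negative difference with every number was found for 0 members, against 5.17% of all genes. NDUFA2 had 0.15, 0.10 and 0.22 for numbers 1, 2 and 3, and NDUFB4 had 0.18, 0.12 and 0.14.

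**Figure D3:**
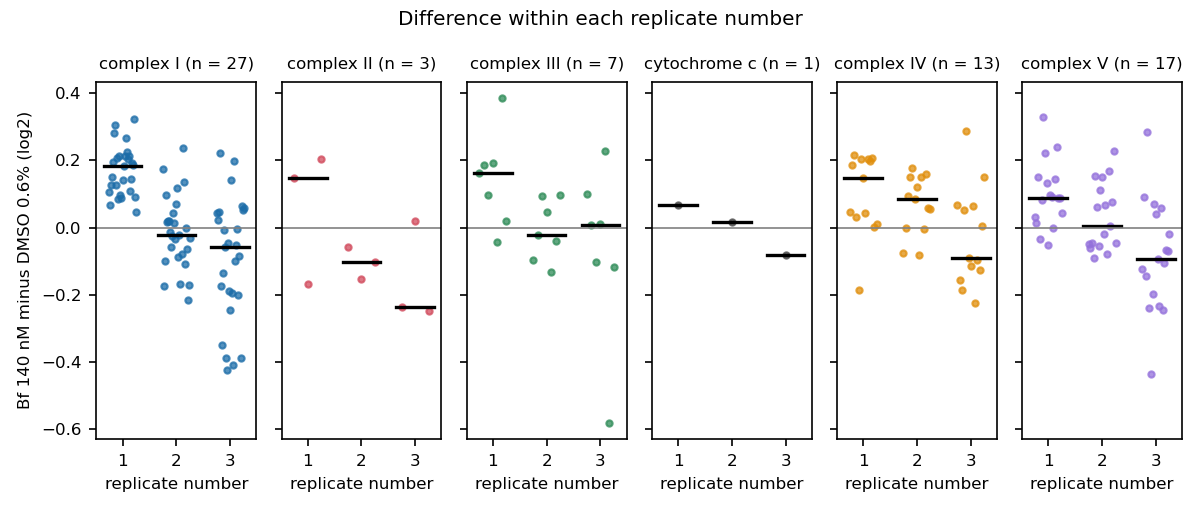
Bf 140 nM minus DMSO 0.6% (log2) of each gene for replicate numbers 1, 2 and 3, by complex, with medians as bars. Points of number 1 lie mostly above 0 (62 of 68) and those of number 3 mostly below (25 of 68 above 0), on the deposited scale.

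More of the 68 genes differed between replicate 3 and the other replicates than between the treatments. This contrast was chosen because the replicate 3 arrays were known to stand apart, so its calls and p-values describe these arrays only. Its fit takes the replicate number out of the error, unlike the treatment fit without a block. With the block, the treatment count was 0 as well. Adjusted for treatment in limma, 39 of the 68 genes (57.4%) passed with a higher level in the replicate 3 arrays than in those of replicates 1 and 2, and 9 (13.2%) passed with a lower one (adjusted p under 0.10). Of all genes 20.0% were higher and 25.6% lower. Of the genes at a level of 11 or above, 53.7% were higher and 14.1% lower, and of the 53 members at that level 34 were higher and 4 lower. At that level the members' shares were 64.2% higher and 7.5% lower. On the deposited scale more of them were higher, and fewer lower, than of bright genes in general, though most bright genes were higher too. These members were also brighter than that set, with a median level of 12.42 against 11.80. Across the 68 genes, mean level and shift had a Spearman rho of 0.30. After quantile normalization 32 members were higher and 17 lower, where 26.9% of all genes were higher and 18.4% lower. Shares of bright genes are not given here on that scale, so the contrast with them was not tested there. The median shift was 0.31 for the members, -0.05 for all genes and 0.25 for the bright genes. The 3′ minus 5′ signals of actin and GAPDH given above moved with this shift, and their part in it was not tested.

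The shift by complex was 16 higher and 3 lower of 27 in complex I, 1 and 1 of 3 in complex II, 5 and 1 of 7 in complex III, 6 and 1 of 13 in complex IV and 10 and 3 of 17 in complex V. CYCS was higher by 0.58 (0.39 to 0.77, limma adjusted p = 0.00021). The largest shift was that of NDUFC1, a small membrane subunit of complex I, at 0.94 (0.73 to 1.15, limma adjusted p = 8.1e-06). It measured 11.82, 12.01 and 12.72 in Bf 140 nM and 11.61, 11.78 and 12.77 in DMSO 0.6%, with replicate 3 well above the others in each group. NDUFA5 was higher by 0.83, NDUFB8 by 0.79, ATP5F1E by 0.77, COX5B by 0.74 and NDUFA9 by 0.73. ATP5F1E is the epsilon subunit in the stalk of ATP synthase, and NDUFB8 an accessory membrane subunit of complex I.

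The 9 genes lower in replicate 3 came from all 5 complexes. NDUFA10, an accessory subunit of complex I, was lowest at -0.64 (-0.84 to -0.44, limma adjusted p = 0.00013), and measured 11.11, 10.77 and 10.34 in Bf 140 nM and 11.04, 10.95 and 10.31 in DMSO 0.6%. COX8A, a small subunit of complex IV, followed at -0.57 and measured 13.14, 12.83 and 12.47 in Bf 140 nM and 13.13, 12.77 and 12.32 in DMSO 0.6%. In both genes the replicate 3 arrays were the dimmest of each group. The others were ATP5F1D (-0.50), UQCRC1 (-0.46), ATP5MC2 (-0.43), NDUFV1 (-0.40), NDUFS3 (-0.28), the pseudogene ATP5MC2P1 (-0.25) and SDHC (-0.24).

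**Figure D4:**
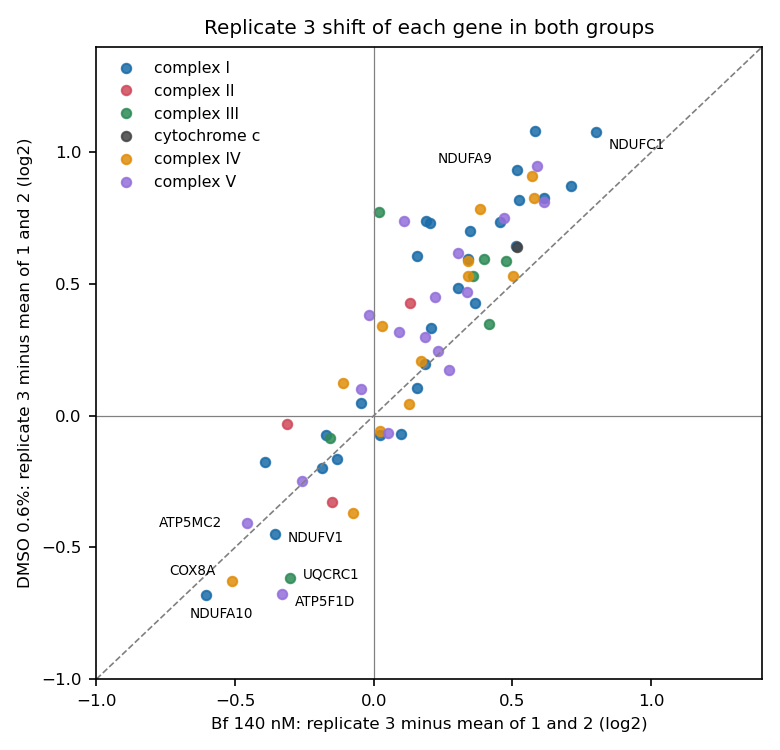
Replicate 3 minus the mean of replicates 1 and 2 (log2) of each gene, Bf 140 nM on the x axis and DMSO 0.6% on the y axis, with the line of equal shifts dashed. Most genes shift the same way in both groups, and 51 of 68 lie above the line, where the shift in Bf 140 nM is the smaller value.

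The replicate 3 shift had a median of 0.19 in Bf 140 nM and 0.40 in DMSO 0.6%. It was lower in Bf 140 nM for 51 of the 68 genes (75%), against 47.9% of all genes and 75.6% of the genes at a level of 11 or above. The actin 3′ minus 5′ signal, at 1.49 in Bf 140 nM and 1.90 in DMSO 0.6%, differed in the same direction, and its part was not tested. On the probe sets used, UQCRC2 differed most between the groups, with a shift of 0.02 in Bf 140 nM and 0.77 in DMSO 0.6%. Its dimmer probe set 200883_at measured 10.96, 10.61 and 10.54 in Bf 140 nM and 10.69, 10.63 and 10.53 in DMSO 0.6%. There replicate 3 was the lowest array of both groups, so the contrast was not shared by that probe set. Across the 68 genes the difference with number 3 and the replicate 3 shift had a Spearman rho of -0.62, against -0.38 across all 11963 genes. The points share the same 6 arrays and both measures use the replicate 3 arrays, so this is a description.

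Other large complexes were compared for the same shift. Of 57 cytosolic ribosomal protein genes, 33 were higher and 4 lower, the median shift being 0.26. Of 33 proteasome subunits, 14 were higher and 7 lower (median 0.16). Of 51 mitochondrial ribosomal protein genes, whose products make the mitochondrially encoded subunits, 19 were higher and 14 lower (median 0.03). Their median levels were 14.04, 11.79 and 10.38, so the families also differed in brightness.

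Probe sets of one gene did not always shift together. For 21 members more than 1 probe set carried the symbol, and between these the difference of Bf 140 nM and DMSO 0.6% spanned at most 0.23, in NDUFA6. The replicate 3 shift spanned up to 1.48, in SDHC. One SDHC probe set, 215088_s_at, measured 10.21, 10.28 and 10.77 in Bf 140 nM and 10.25, 10.28 and 10.93 in DMSO 0.6%, and was higher in replicate 3 by 0.60. Another, 216591_s_at, measured 10.50, 10.52 and 9.71 in Bf 140 nM and 10.66, 10.74 and 9.73 in DMSO 0.6%, a shift of -0.89. The brightest, 202004_x_at, shifted by -0.24 and 210131_x_at by -0.08. ATP5MC3 was the other gene with calls in both directions, at 0.40 for 207508_at and -0.34 for 207507_s_at. In NDUFB8 the probe set used shifted by 0.79 and the others by -0.18 and -0.15, which did not pass. In COX5B the values were 0.74, 0.63 and 0.23, which passed, and -0.05, which did not. In UQCRC2 the probe set used shifted by 0.40 and 200883_at by -0.19, which did not pass. In NDUFA5 the probe set used shifted by 0.83, and a dim one at a mean level of 6.42 by -0.18, which did not pass. For SDHC and ATP5MC3 the direction of the replicate 3 shift thus depended on the probe set. Of the 68 probe sets used, 28 end in _s_at and 8 in _x_at, types that can read related transcripts or copies of a gene elsewhere in the genome.

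**Figure D5:**
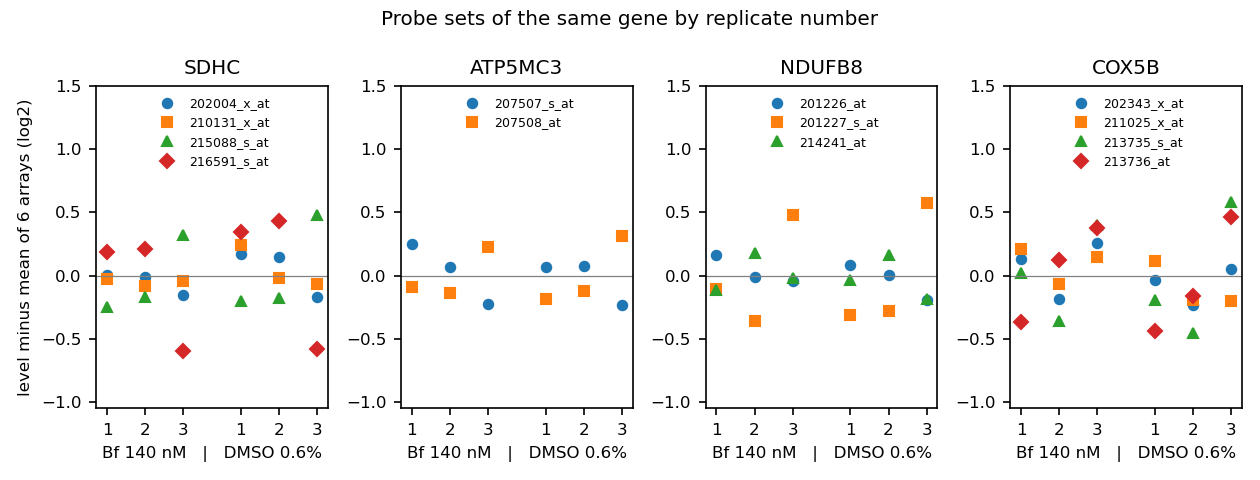
Level of each probe set minus its own mean over 6 arrays (log2) in SDHC, ATP5MC3, NDUFB8 and COX5B, by group and replicate number. In SDHC and ATP5MC3 the replicate 3 points of different probe sets lie on opposite sides of 0 in both groups.

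Genes that build and serve the complexes showed 0 higher and 0 lower in Bf 140 nM as well, over 75 genes found of 109 listed. Assembly factors (28 of 52 found) had a median difference of 0.02, regulators of mitochondrial biogenesis (18 of 21) 0.04, carriers and channels (11 of 15) 0.01, coenzyme Q synthesis (11 of 13) 0.01, and other entry points for electrons (7 of 8) -0.06. The 2 genes with the smallest p in each list were NUBPL and UQCC1, POLG2 and POLG, SLC25A3 and VDAC1, COQ8B and COQ6, and SQOR and ETFA. POLG2, the accessory subunit of the mitochondrial DNA polymerase, averaged 8.79 ± 0.15 in Bf 140 nM and 8.61 ± 0.15 in DMSO 0.6%, a difference of 0.18 (-0.11 to 0.47). NUBPL, which inserts iron-sulfur clusters into complex I, averaged 8.21 ± 0.20 in Bf 140 nM and 8.04 ± 0.23 in DMSO 0.6%, a difference of 0.17 (-0.22 to 0.55). COQ8B, a kinase-like protein of coenzyme Q synthesis, averaged 6.86 ± 0.17 in Bf 140 nM and 6.69 ± 0.28 in DMSO 0.6%. ETFA, which carries electrons from fatty acid oxidation, averaged 11.17 ± 0.11 in Bf 140 nM and 11.28 ± 0.05 in DMSO 0.6%, a difference of -0.10 (-0.33 to 0.12). SLC25A3, the phosphate carrier that supplies ATP synthase, averaged 13.37 ± 0.11 in Bf 140 nM and 13.44 ± 0.20 in DMSO 0.6%. The gene of NRF1 itself averaged 9.06 in Bf 140 nM and 9.02 in DMSO 0.6%, a difference of 0.03 (-0.37 to 0.44).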

How the data were processed

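Cell intensities were read out with GCOS and normalized by VSN, with R 2.5.0 named in the submitters' notes. The authors deposited the result on a log scale with a column for each array, read here as log2. How probes were summarized, and a genome build for the arrays, are not given in the sources used here. Those sources do not state the base either, and base 2 is the usual one of VSN. The study's filter on Present calls and its test, SAM, were not repeated. Groups and replicate numbers came from the sample titles. No depth applies to arrays, and precision is limited by the 3 arrays per group.

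Gene names came from the platform annotation: of 22215 probe sets left after 62 controls, 19064 had 1 symbol, 1043 several and 2108 none. Promoters came from RefSeq tables of GRCh38.p14, the only source of coordinates here. All probe sets were tested in limma 3.58.1 under R 4.3.3 (lmFit, eBayes, Benjamini-Hochberg), without a filter or block. The spread between replicate numbers was thus left in the error of this main fit. The contrast of replicate 3 had treatment and replicate number as terms. The script was checked on simulated data.

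To see whether replicate numbers pair the samples, each array's deviation from the mean of its group was compared between both arrays of a number. The correlations were 0.725, 0.783 and 0.880 for numbers 1, 2 and 3. Deviations within a group cancel out, and both replicate 3 arrays stood apart, so all of them can be high for that reason alone. The check thus cannot show that numbers 1 and 2 pair the arrays. The fits with the block and the differences per number take the numbers as pairs without that knowledge. The sources do not say what a number marks.

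The members and lists were chosen with earlier results of these data known. Named genes were those of complex II, CYC1, CYCS, isoform families, core subunits, in each of the other complexes the members with the smallest p, the extreme differences and the widest range, and 2 genes of each related list. Alternatives were the block, 2 scalings, 2 filters, the variance model, array weights, left-out arrays, the mean of all probe sets, other thresholds and natural logs.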

Additional observations from a re-analysis of the deposited data

How the results depend on the processing

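The counts of 0 members and 0 related genes passing in either direction were also 0 under each alternative run for them. With the replicate block, the intervals within 1.5-fold numbered 68 in place of 45, with or without both replicate 3 arrays, and the block changed no other call. This count was 22 with the values read as natural logs and 28 to 40 with 1 array left out. Members positive in 3 of 3 numbers were 4 in place of 8 with equal array medians, and members negative in 3 of 3 were 2 with quantile normalization, 1 with equal array medians and 1 with the mean of all probe sets, in place of 0. Members lower in replicate 3 were 17 with quantile normalization in place of 9. Their median shift was 0.51 with equal array medians, where that of all genes was 0.15 in place of -0.05, and 41.1% of all genes were higher and 11.2% lower. The cause of these moves was not tested.

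With each array left out in turn, the median difference ran from -0.071 to 0.18 for all members, -0.087 to 0.19 for complex I, -0.13 to -0.044 for complex II, -0.083 to 0.18 for complex III, -0.17 to 0.21 for CYCS, -0.042 to 0.19 for complex IV and -0.057 to 0.15 for complex V. The upper end came without replicate 3 of DMSO 0.6% in each but complex II. Of 43 named genes, 0 passed in any setting, 15 kept the sign of their difference in all settings, and the largest difference without sign was 0.35. Without the block, 45 of 68 intervals stay within 1.5-fold at a median half-width of 0.48, and with it all 68 do at 0.19. The limit on small changes thus depends on the pairing, which the check of the replicate numbers could not settle. A fit of the array weights did not fully converge.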
